A study of Rattus norvegicus with 11 samples.

Results

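The genes described here are the chemokines and chemokine receptors of rat islets, 49 of the 14324 genes measured on the array. They were taken by name: every probe whose single gene symbol starts with Ccl, Ccr, Cxcl, Cxcr, Cx3cl, Cx3cr, Xcl, Xcr or Ackr and a number, apart from the interferon-induced Cxcl9, Cxcl10 and Cxcl11. Of the 49 genes, 30 encode ligands, 17 conventional receptors and 2 atypical receptors, and each was read by 1 probe. Cxcl13 was singled out as of special interest, and the members were chosen with earlier results of these data known. Its p-values below are therefore not those of a gene picked blind to the data.

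RNA came from islets of female Sprague-Dawley offspring at 13 weeks of age, measured on 11 one-colour Affymetrix arrays. The fathers of the 5 samples labelled HFD had eaten pellets with 43% fat, and the fathers of the 6 labelled Chow had eaten chow with 9% fat. All fathers were mated at 15 weeks with chow-fed females, and all daughters were weaned at 3 weeks onto chow, so no daughter ate the high-fat diet herself. The groups are called HFD-father and chow-father islets below, and nothing in the labels ties a sample number to its own rat, litter or father. The p-values below rest on the spread among the 11 samples alone, which may be technical.

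Chemokines are small secreted proteins that guide migrating leukocytes along a concentration gradient. They are named after the spacing of their first cysteines, as in the CC, CXC, CX3C and XC families, and act through G protein-coupled receptors of matching names. Inflammatory members draw monocytes, neutrophils or eosinophils into tissue, while homeostatic members place lymphocytes, dendritic cells and stem cells. Atypical receptors bind the same ligands and remove them without classical G protein signalling. CXCL13 attracts B cells and follicular helper T cells through CXCR5 and organises lymphoid follicles, and in rodents it is also made by resident cells of the body cavities.

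The sequences below are the 250 bases before the annotated gene start, from RefSeq on GRCr8, of 4 of the 5 members whose unadjusted p was under 0.05. They are shown because these genes had the lowest unadjusted p among members, though none passed the adjusted threshold. The fifth, Ccl26, held none of the motifs searched. The Cxcl13 window lies at chr14:13917921-13918170, that of Cxcr4, the receptor for CXCL12, at chr13:42634289-42634538, that of Cx3cl1, the membrane-bound chemokine fractalkine, at chr19:10242821-10243070, and that of Cxcl6, whose product draws neutrophils, at chr14:17596418-17596667. All 4 are read on the minus strand, 5′ to 3′. Capitals mark the TATA box letters TATAAA in the first 3 (in Cxcr4 a match on each strand, overlapping) and the kB letters GGAATTTCC, of the kind bound by NF-kB, in Cxcl6.
Cxcl13: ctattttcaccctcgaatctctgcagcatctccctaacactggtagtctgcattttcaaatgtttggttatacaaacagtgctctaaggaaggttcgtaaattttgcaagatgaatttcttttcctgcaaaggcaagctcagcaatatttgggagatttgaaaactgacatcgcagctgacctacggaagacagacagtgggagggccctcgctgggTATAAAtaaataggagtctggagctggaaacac
Cxcr4: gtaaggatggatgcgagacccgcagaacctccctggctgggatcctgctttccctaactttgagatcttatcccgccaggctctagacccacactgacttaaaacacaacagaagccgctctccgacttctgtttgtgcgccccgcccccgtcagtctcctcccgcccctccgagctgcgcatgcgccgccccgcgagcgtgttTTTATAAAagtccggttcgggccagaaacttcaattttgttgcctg
Cx3cl1: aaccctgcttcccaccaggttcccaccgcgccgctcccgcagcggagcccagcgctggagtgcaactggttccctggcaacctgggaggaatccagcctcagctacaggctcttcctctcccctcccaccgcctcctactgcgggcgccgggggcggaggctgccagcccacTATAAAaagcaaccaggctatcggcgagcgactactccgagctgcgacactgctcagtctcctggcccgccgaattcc
Cxcl6: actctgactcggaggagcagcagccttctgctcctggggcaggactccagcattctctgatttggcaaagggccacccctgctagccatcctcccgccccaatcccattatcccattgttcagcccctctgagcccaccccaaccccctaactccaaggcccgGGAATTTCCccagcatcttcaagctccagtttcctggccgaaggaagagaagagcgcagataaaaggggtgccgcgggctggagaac
A promoter window was at hand for 38 of the 49 members. On either strand TATAAA stood in 10 of them, or 26.3%, against 12.9% of all 33469 promoter windows. The kB letters stood in 3 members, Cxcl1, Cxcl6 and Ccr3, or 7.89%, against 0.287% of all windows. The third motif searched, the SP1 box GGGCGG, stood in 26.3% of the members' windows and 30.5% of all. Its matches in Cxcr4, Cx3cl1 and Cxcl6 are not marked above. These are matches of letters, and nothing follows from them about binding. Many members are also neighbours in the RefSeq gene order: 26 of 49 have another member next to them, in 8 groups, of which Ccr1, Ccr1l1, Ccr2, Ccr3, Cxcr6 and Xcr1 on chromosome 8 form the one with most genes.

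The 11 arrays had log2 medians of 6.137 to 6.202, and pairs of arrays correlated at 0.9869 to 0.9950. Islet endocrine markers such as Ins1 and Gcg were bright, with mean levels of 9.10 to 14.29 for the 14 measured, and so were the 21 acinar markers, at 8.98 to 14.20, whose mean deviation ran from -0.17 to 0.46 in HFD-father arrays and from -1.11 (replicate 4) to 0.46 in chow-father arrays. The numbers under which the samples were deposited fall into an earlier run of 8 arrays, 4 per group, and a later run of 3 (HFD-father 5, chow-father 5 and chow-father 6). For each probe the means of both runs were equal to within 5.83e-05, so levels are relative within a run. Within-run differences are given beside the pooled ones for some genes only. HFD-father 1 stood apart in lymphocyte transcripts. Its mean over 6 B cell markers lay 1.16 above their average over all arrays, while the other 10 arrays ran from -0.24 to 0.13, and its mean over 15 T and NK cell markers lay 0.69 above, against -0.16 to 0.05 elsewhere. In whole islets, fewer cells of a type and less RNA per cell cannot be told apart.

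Members were bright less often than genes on the array as a whole. The 95th percentile of 1104 olfactory receptor genes, a family that islets are not known to use widely, served as a guide and lay at 5.26 on the log2 scale. Of the 49 members 26 had a mean level above it, against 74.5% of all genes. Above it were 9 of 14 homeostatic and tissue ligands, 6 of 12 inflammatory CC ligands, 1 of 4 neutrophil-attracting CXC ligands, 8 of 17 conventional receptors and both atypical receptors. Probes differ in brightness for reasons of sequence, so levels of different genes are not ranked against each other.

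**Figure D1:**
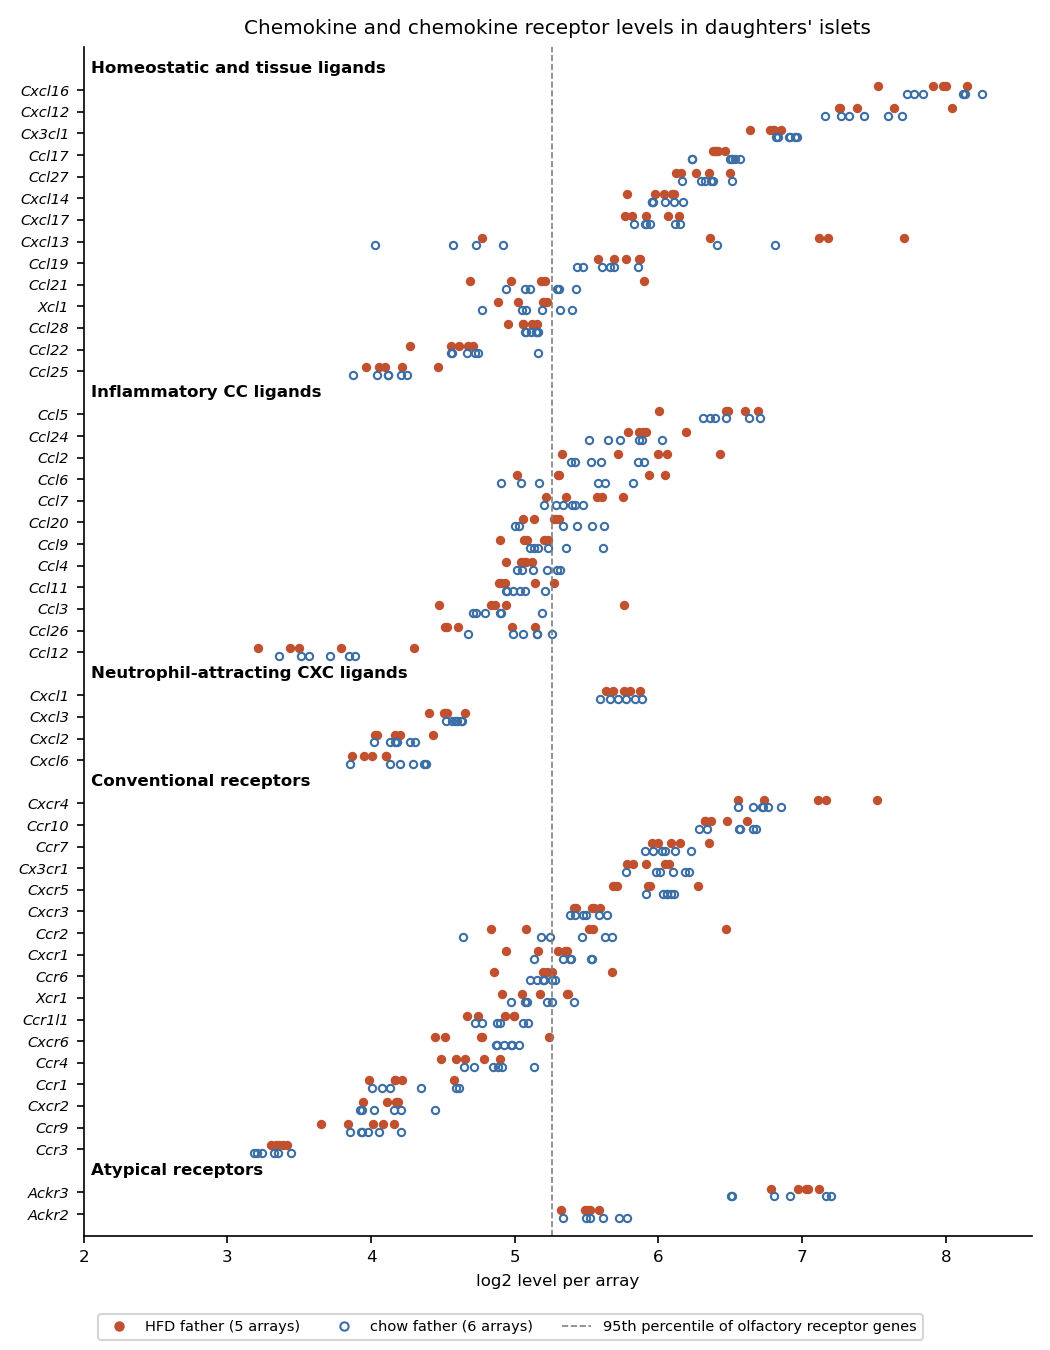
Log2 level of the 49 members in each array, by role (filled points: 5 HFD-father arrays, above; open points: 6 chow-father arrays, below). The dashed line marks the 95th percentile of olfactory receptor genes, at 5.26; Cxcl13 has the widest spread, from 4.03 to 7.71, and the groups overlap for every member.

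No member differed between the groups past the threshold. With limma and Benjamini-Hochberg adjustment over all 27342 probes, 0 of the 49 members had an adjusted p under 0.05, as did 0 of all genes (0%), and the lowest adjusted p among members was 0.494. At an unadjusted p under 0.05 there were 5 members (10.2%), against 8.25% of all genes, so the family's share lay near the background. Cxcl13 and Cxcr4 were the 2 with higher values in HFD-father islets, where the background is 2.97%. Cx3cl1, Ccl26 and Cxcl6 were the 3 with lower values, against a background of 5.28%. The 2 groups of arrays overlapped for all 49 members. They were apart for only 0.887% of all genes, so this too lay near the background. The median difference over the members was -0.03, with 21 higher and 28 lower in HFD-father islets, and over all genes it was 0.00. The sign of the members' median depended on the scaling, since it was 0.01 after quantile normalization and -0.003 after median centring. With a block for run, 3 members had an unadjusted p under 0.05 (Cxcl13, Cx3cl1 and Ccl26), while Cxcr4 and Cxcl6 did not. In that fit 962 of all 14324 genes had such a p, against 1182 without the block. The count of 5 also rested on single arrays. It became 0 when chow-father 3, chow-father 6 or HFD-father 5 was left out, 1 when chow-father 4 was, 2 when HFD-father 4 was, and 6 when HFD-father 2 was. Over all genes the counts in the same fits, in the same order, were 1144, 1013, 719, 1111, 918 and 1096.

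**Figure D2:**
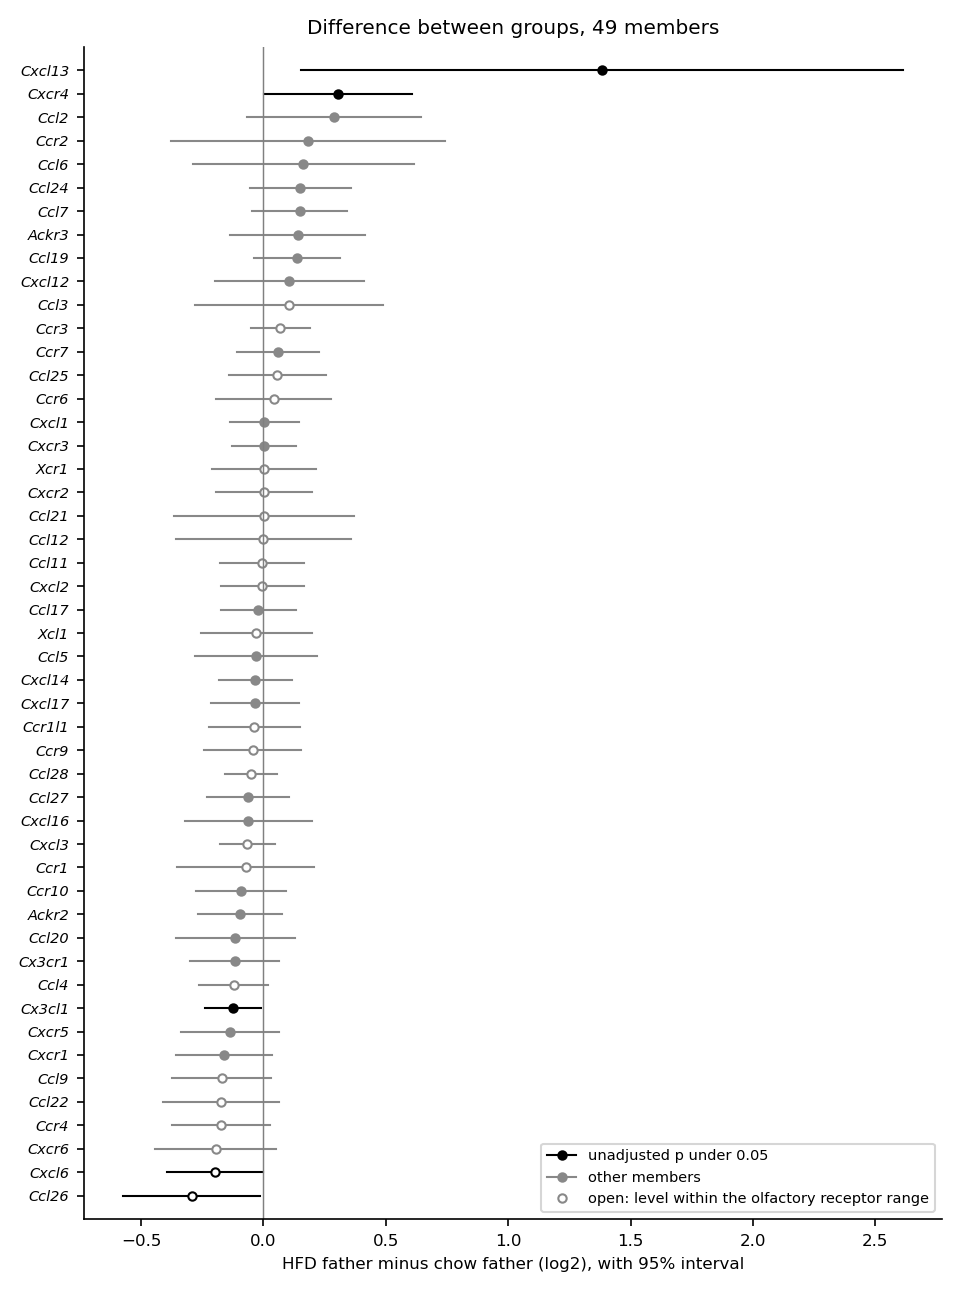
Difference in log2 level, HFD-father minus chow-father, for the 49 members (points) with limma's 95% interval (lines); black marks an unadjusted p under 0.05 and open points a mean level within the olfactory receptor range. Cxcl13 lies at 1.38 with an interval from 0.15 to 2.61, and the other members lie between -0.29 and 0.30.

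Cxcl13 varied more between arrays than any other member. Its log2 level was 7.11, 4.77, 6.36, 7.71 and 7.18 in HFD-father 1 to 5, and 6.81, 4.73, 4.57, 4.92, 6.41 and 4.03 in chow-father 1 to 6. The values fell into 2 sets with a gap of 1.44 between them, and the next widest gap was 0.54. The upper set, from 6.36 upward, held 4 of 5 HFD-father arrays (all but replicate 2) and 2 of 6 chow-father arrays (replicates 1 and 5). Its SD over the 11 arrays, 1.29, was the 7th of all 14324 genes, and the next member, Ccr2, was 187th at 0.49.

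The mean level of Cxcl13 was 6.63 ± 1.14 (SD, n = 5) in HFD-father islets and 5.24 ± 1.10 (SD, n = 6) in chow-father islets. The difference of 1.38 ± 0.57 (SE), 2.61-fold, was the greatest of all genes in either direction. Its 95% interval ran from 0.15 to 2.61, its unadjusted p was 0.0305, which ranked 762nd among genes, and its adjusted p was 0.494 (limma). An exact two-sided permutation test, with HFD labels moved within the runs in 210 splits, gave p = 0.105. The difference was 1.23 within the earlier run and 1.96 within the later one, which has 1 HFD-father array. With each array left out in turn it was lowest, at 1.11, in the absence of HFD-father 4 and highest, at 1.85, in the absence of HFD-father 2. The size was thus large beside other genes, but not beyond the spread between arrays of 1 group.

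The next positive differences after Cxcl13 in size were those of genes for mast cell proteases, and these genes were high in much the same arrays. Mcpt1l1, a member of the mast cell protease family, had the second greatest positive difference of all genes. Its levels were 5.91, 4.26, 5.88, 7.40 and 6.41 in HFD-father 1 to 5, against 5.77, 4.58, 4.25, 4.40, 5.47 and 4.04 in chow-father 1 to 6. As for Cxcl13, HFD-father 1, 3, 4 and 5 and chow-father 1 and 5 lay above the other 5 arrays. The difference was 1.22 ± 0.47 (SE), with an adjusted p of 0.487. Mast cell proteases are encoded by closely related genes, so part of this signal may come from a relative.

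Cpa3, mast cell carboxypeptidase A, ranked 3rd by positive difference. It stood at 4.46, 3.46, 4.15, 5.36 and 5.25 in HFD-father 1 to 5, against 4.47, 3.60, 3.11, 2.88, 3.47 and 3.09 in chow-father 1 to 6, levels near those of dim probes. HFD-father 4 and 5 were highest, and chow-father 1 was the only chow-father array near the high HFD-father arrays. The difference was 1.10 ± 0.35 (SE; unadjusted p = 0.00719, adjusted p = 0.43 with limma), and 0.84 and 1.98 within the earlier and later run. Other mast cell markers differed little: of 7 measured, 4 were higher and 3 lower, Cpa3 alone had an unadjusted p under 0.05, and 5 (Cpa3, Mcpt1, Ms4a2, Fcer1a and Tpsab1) lay within the olfactory receptor range. The list's mean deviation ran from -0.14 to 0.28 in HFD-father arrays and from -0.17 to 0.11 in chow-father arrays, and without Cpa3 from -0.085 to 0.086 and from -0.115 to 0.044. The part of mast cells in the Cxcl13 difference was not tested.

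By Pearson correlation with Cxcl13 over the 11 arrays, centred per run, the most similar of 10674 other genes above the olfactory receptor range were Mcpt1l1 (r = 0.96), Ccl2 (0.93), Nufip1 (0.92), Pacsin2 (0.90), Pycr3 (0.89), Plcg1 (0.89), Abhd11 (0.89) and Extl3 (0.89). These coefficients are a description, since Cxcl13 falls into 2 sets and all genes share the same arrays. They are also the highest of 10674 over only 11 arrays, and ranking so many genes yields some high values by itself. Among the 6 arrays of the upper set r was 0.88 for Mcpt1l1, 0.95 for Ccl2 and 0.88 for Cpa3. That set was drawn by the Cxcl13 values and these genes were picked from the same arrays, so these r are no separate check. Ccl2 was the only member among the 8 genes. The mean of the mast cell list correlated with Cxcl13 at 0.93 (0.76 without Cpa3). That of plasma cell markers did so at 0.62, macrophage markers at 0.56, B cell markers at 0.42 and T and NK cell markers at 0.38. Lists of cells other than leukocytes reached similar values: endothelial markers 0.53, stellate cell and fibroblast markers 0.5 and acinar markers 0.35. Neutrophil markers gave -0.12 and islet endocrine markers -0.28. Nufip1, Pacsin2 and the others differed by 0.07 to 0.23 between groups, a much smaller range than that of Mcpt1l1.

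**Figure D3:**
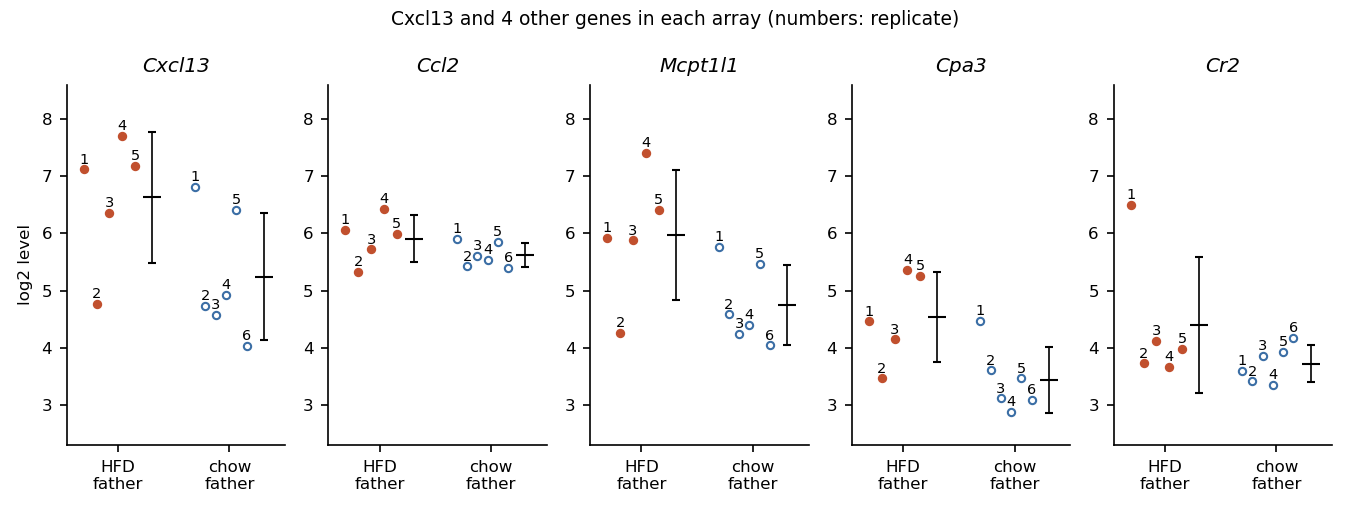
Log2 level of Cxcl13, Ccl2, the mast cell genes Mcpt1l1 and Cpa3, and the B cell receptor gene Cr2 in each array (numbers give the replicate; bars give mean and SD, n = 5 HFD-father and n = 6 chow-father). Cxcl13 and Mcpt1l1 are high in HFD-father 1, 3, 4 and 5 and chow-father 1 and 5, whereas Cr2 is high, at 6.50, in HFD-father 1 only.

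Transcripts of B cells, which CXCL13 attracts, were high in 1 array rather than in the whole upper set. Cxcr5, its receptor on B cells, stood at 6.28, 5.94, 5.68, 5.71 and 5.93 in HFD-father 1 to 5, and from 5.91 (median 6.06) to 6.11 in chow-father islets. HFD-father 3 and 4, both in the upper Cxcl13 set, had the lowest Cxcr5 of all arrays, and the correlation of the pair was -0.16 over 11 arrays. Cr2, the complement receptor of B cells and follicular dendritic cells, was 6.50 in HFD-father 1 and 3.66 to 4.12 in the other HFD-father arrays, against 3.35 to 4.17 in chow-father arrays. Ms4a1, which encodes CD20, was 5.66 in HFD-father 1 and 3.92 to 4.40 in the others of its group, against 3.96 to 4.18 in chow-father arrays. Without HFD-father 1, the array rich in B cell markers, the Cxcl13 difference was 1.26. The part of B cells in the Cxcl13 difference was not tested.

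Of the 17 measured genes of a list for lymphoid tissue, such as lymphotoxins, adhesion molecules and survival factors of B cells, 10 were higher and 7 lower in HFD-father islets, and the median difference was 0.02. The list's mean deviation was 0.59 in HFD-father 1 and from -0.17 to 0.03 in the other arrays. HFD-father 1 held the highest value of 10 of the 17 genes, and the greatest difference was that of Cr2, at 0.68. Only Tnf, which encodes the cytokine TNF and helps induce CXCL13 in lymphoid organs, had an unadjusted p under 0.05. It stood at 5.33, 5.15, 5.41, 4.94 and 5.24 in HFD-father 1 to 5, against 5.57, 5.63, 5.27, 5.67, 5.53 and 5.34 in chow-father 1 to 6. HFD-father 4 was lowest, and HFD-father 1 and 3 lay within the chow-father values. The difference was -0.29 ± 0.09 (SE), with an adjusted p of 0.438. Without HFD-father replicate 1, the array rich in lymphocyte markers, 4 genes of the list instead of 1 had an unadjusted p under 0.05. Over all genes that count also rose, from 1182 to 1611. With all arrays the share was 5.88% of the list, against 8.25% of all genes.

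CXCL12 retains stem cells and lymphocytes in their niches through CXCR4, and ACKR3 scavenges it. Cxcr4 read 7.52, 6.55, 6.74, 7.11 and 7.17 in HFD-father 1 to 5, and from 6.56 (median 6.72) to 6.85 in chow-father islets. HFD-father 1, 4 and 5 lay above every chow-father array, while HFD-father 2 was as low as the lowest chow-father array. The mean was 7.02 ± 0.38 (SD, n = 5) in HFD-father islets and 6.71 ± 0.10 (SD, n = 6) in chow-father islets, a difference of 0.30 ± 0.14 (SE) with an interval of 0.00 to 0.61, an unadjusted p of 0.0476 and an adjusted p of 0.532 (limma). The difference was 0.18 when HFD-father 1 was left out and 0.42 when HFD-father 2 was. HFD-father 1 is the array with the high lymphocyte markers, and the part of lymphocytes in its Cxcr4 level was not tested.

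Cxcl12 itself read 8.05, 7.64, 7.27, 7.38 and 7.26 in HFD-father 1 to 5, and from 7.16 (median 7.38) to 7.69 in chow-father islets. HFD-father 1 was again highest and the rest overlapped. The difference of 0.11 ± 0.14 (SE; adjusted p = 0.849 with limma) turned to -0.03 without HFD-father replicate 1, and was 0.24 in the earlier run and -0.30 in the later run. Ackr3 read 7.04, 6.97, 6.79, 7.12 and 7.03 in HFD-father 1 to 5, inside the chow-father range of 6.51 to 7.20 (median 6.86), with a difference of 0.14 ± 0.13 (SE).

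Fractalkine, the product of Cx3cl1, is a membrane-tethered ligand of CX3CR1 on monocytes and macrophages, and the pair has been studied in beta cells for insulin secretion. Cx3cl1 read 6.81, 6.80, 6.64, 6.85 and 6.78 in HFD-father 1 to 5, and 6.91, 6.95, 6.97, 6.82, 6.83 and 6.92 in chow-father 1 to 6. The spread within each group was narrow, and HFD-father 4 alone passed the lowest chow-father values. Its mean was 6.77 ± 0.08 (SD, n = 5) in HFD-father islets and 6.90 ± 0.06 (SD, n = 6) in chow-father islets. The difference of -0.12 ± 0.05 (SE) had an interval of -0.24 to -0.01, an unadjusted p of 0.0363 and an adjusted p of 0.505 (limma). It kept between -0.14 and -0.09 when each array was left out. Cx3cr1 differed by -0.12 ± 0.08 (SE), with an adjusted p of 0.696.

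The other ligands of the homeostatic and tissue class differed little. Cxcl16, a membrane-bound ligand of CXCR6 that is also a scavenger receptor for oxidised lipoprotein, read 7.91, 7.999, 7.53, 8.15 and 7.98 in HFD-father 1 to 5 and from 7.73 (median 7.98) to 8.25 in chow-father islets. Apart from the low HFD-father 3, the groups covered the same range, and the difference was -0.06 ± 0.12 (SE). Cxcr6 was lower by 0.19 ± 0.11 (SE), at a level within the olfactory receptor range. Ccl19 and Ccl21, which guide cells bearing CCR7 into lymph nodes, differed by 0.14 and 0.00, and Ccr7 by 0.06. Ccl21 and Ccr7 were both highest in HFD-father 1, at 5.90 and 6.35. Of the epithelial chemokines, Ccl27, Ccl28, Cxcl14 and Cxcl17 differed by -0.06, -0.05, -0.03 and -0.03. Ccl17 and Ccl22, ligands of CCR4, differed by -0.02 and -0.17, Ccl25 by 0.06 and Xcl1 by -0.03. Over the 14 ligands of this class 5 were higher and 9 lower in HFD-father islets, with a median difference of -0.03.

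The inflammatory CC ligands gave 6 higher and 6 lower in HFD-father islets, with a median of 0.00. Ccl2, which draws monocytes through CCR2, read 6.06, 5.33, 5.72, 6.43 and 6.00 in HFD-father 1 to 5, and 5.90, 5.42, 5.60, 5.53, 5.86 and 5.39 in chow-father 1 to 6. It was high in HFD-father 4, 1 and 5 and lowest in HFD-father 2, the array that also lacked the high Cxcl13 values. The difference was 0.29 ± 0.17 (SE), with an interval of -0.07 to 0.65, an unadjusted p of 0.104 and an adjusted p of 0.615 (limma). It ran from 0.16 to 0.43 when each array was left out.

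Ccr2 read 5.54, 4.84, 5.08, 6.47 and 5.52 in HFD-father 1 to 5 and from 4.64 (median 5.36) to 5.68 in chow-father islets. HFD-father 4 stood above all others. The difference of 0.18 ± 0.26 (SE) turned to -0.06 without HFD-father replicate 4. Over the 11 arrays Ccr2 and Ccl2 had r = 0.85, the highest of 20 ligand and receptor pairs, whose median was 0.245 and whose lowest value was -0.72 for Ccl25 and Ccr9. The mean over 13 macrophage markers stood at 0.38, -0.18, -0.27, 0.17 and -0.03 in HFD-father 1 to 5, and at 0.11, -0.22, 0.22, -0.21, 0.30 and -0.27 in chow-father 1 to 6. HFD-father 1 was highest, and chow-father 5 and 3 lay above HFD-father 4. Its part in the Ccl2 and Ccr2 values was not tested.

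Ccl6, a monocyte attractant known from rodents, read 5.94, 5.30, 5.01, 6.04 and 5.31 in HFD-father 1 to 5 and from 4.91 (median 5.37) to 5.82 in chow-father islets. HFD-father 1 and 4 were again the highest, and the difference was 0.16 ± 0.21 (SE). Ccl5, which draws T cells and eosinophils, read 6.49, 6.60, 6.00, 6.47 and 6.69 in HFD-father 1 to 5 and from 6.31 (median 6.43) to 6.71 in chow-father islets, with a difference of -0.03 ± 0.11 (SE). Ccl24, an eosinophil attractant, read 6.19, 5.86, 5.91, 5.89 and 5.79 in HFD-father 1 to 5, and from 5.52 (median 5.80) to 6.03 in chow-father islets. All 5 HFD-father values lay above the chow-father mean, but the difference of 0.15 ± 0.10 (SE) had an adjusted p of 0.653 (limma), and was -0.09 in the later run.

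Ccl26, another eosinophil attractant, read 4.98, 5.14, 4.51, 4.61 and 4.53 in HFD-father 1 to 5, and 4.67, 4.98, 5.15, 5.26, 5.15 and 5.06 in chow-father 1 to 6, all at or below the olfactory receptor range's upper end. HFD-father 3, 4 and 5 lay below every chow-father array. The difference was -0.29 ± 0.13 (SE; interval -0.57 to -0.01, unadjusted p = 0.0418, adjusted p = 0.519 with limma). The remaining CC ligands were Ccl7 (0.15), Ccl3 (0.10), Ccl12 (0.00), Ccl11 (0.00), Ccl20 (-0.11), Ccl4 (-0.12) and Ccl9 (-0.17), where each value is the difference and none had an unadjusted p under 0.05.

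The neutrophil-attracting CXC ligands, which act through CXCR2, were dim apart from Cxcl1. Cxcl1 read 5.87, 5.63, 5.68, 5.76 and 5.80 in HFD-father 1 to 5 and from 5.59 (median 5.75) to 5.89 in chow-father islets. The groups covered the same range, and the difference was 0.00 ± 0.07 (SE), with an interval of -0.14 to 0.15. Cxcl6 read 3.95, 4.10, 3.87, 4.10 and 4.01 in HFD-father 1 to 5, and 4.38, 3.85, 4.29, 4.37, 4.13 and 4.20 in chow-father 1 to 6. The chow-father values were higher apart from replicate 2, with a difference of -0.20 ± 0.09 (SE; interval -0.39 to 0.00, unadjusted p = 0.0472, adjusted p = 0.531 with limma), at a level where this array separates signal poorly. Cxcl3 read 4.53, 4.65, 4.51, 4.40 and 4.51 in HFD-father 1 to 5 and from 4.52 (median 4.59) to 4.63 in chow-father islets, and Cxcl2 differed by 0.00. The receptors Cxcr1 and Cxcr2 differed by -0.16 and 0.00.

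Among the other receptors, Ccr10, which guides lymphocytes to skin and mucosa, read 6.37, 6.33, 6.61, 6.33 and 6.48 in HFD-father 1 to 5 and from 6.28 (median 6.56) to 6.68 in chow-father islets. The groups overlapped along their whole length, with a difference of -0.09 ± 0.08 (SE). Ackr2, which clears inflammatory CC ligands, read 5.49, 5.52, 5.32, 5.59 and 5.50 in HFD-father 1 to 5 and from 5.34 (median 5.57) to 5.78 in chow-father islets, with a difference of -0.10 ± 0.08 (SE). The remaining conventional receptors were Ccr3 (0.07), Ccr6 (0.04), Cxcr3 (0.00), Xcr1 (0.00), Ccr1l1 (-0.04), Ccr9 (-0.04), Ccr1 (-0.07) and Ccr4 (-0.17), each value again a difference. Of the 17 conventional receptors 8 were higher and 9 lower in HFD-father islets.

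Downstream of the receptors, 28 genes of G protein, arrestin and kinase signalling were measured. They split into 14 higher and 14 lower, with a median difference of 0.00 and 0 past the adjusted threshold. Rgs2, which shortens G protein signalling, was the only one with an unadjusted p under 0.05. It read 7.58, 7.24, 7.99, 8.21 and 7.49 in HFD-father 1 to 5, against 7.84, 8.44, 8.88, 8.74, 9.15 and 7.70 in chow-father 1 to 6. HFD-father 1, 2 and 5 lay below every chow-father array, and the difference was -0.76 ± 0.26 (SE; adjusted p = 0.454 with limma). With all arrays 3.57% of the list had an unadjusted p under 0.05, against 8.25% of all genes. Without chow-father replicate 6 there were 4 such genes, and 2 without chow-father replicate 1 or HFD-father replicate 2, 3 or 5. Over all genes the count was 1182 with all arrays, 1013 without chow-father replicate 6 and 1081 without chow-father replicate 1. It was 1096, 1342 and 719 without HFD-father replicate 2, 3 and 5. The platelet chemokine Pf4 differed by -0.15 ± 0.06 (SE; unadjusted p = 0.0245, adjusted p = 0.491 with limma), and Ppbp by 0.09.

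HFD-father 1 held the highest value of 12 of the 49 members (24.5%), against 10.4% of all genes. Besides Cxcr4, Cxcl12, Ccl21 and Ccr7 these included Ccl3 at 5.76 and Ccr6 at 5.68. Leaving it out kept the sign of the difference for 38 of the 49 members. The same array held the highest value of 6 of 6 B cell markers and 12 of 15 T and NK cell markers. Among the 13 macrophage markers it was highest for 4 and chow-father 3 for 5. What part these cells had in the members' values in HFD-father 1 was not tested.

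**Figure D4:**
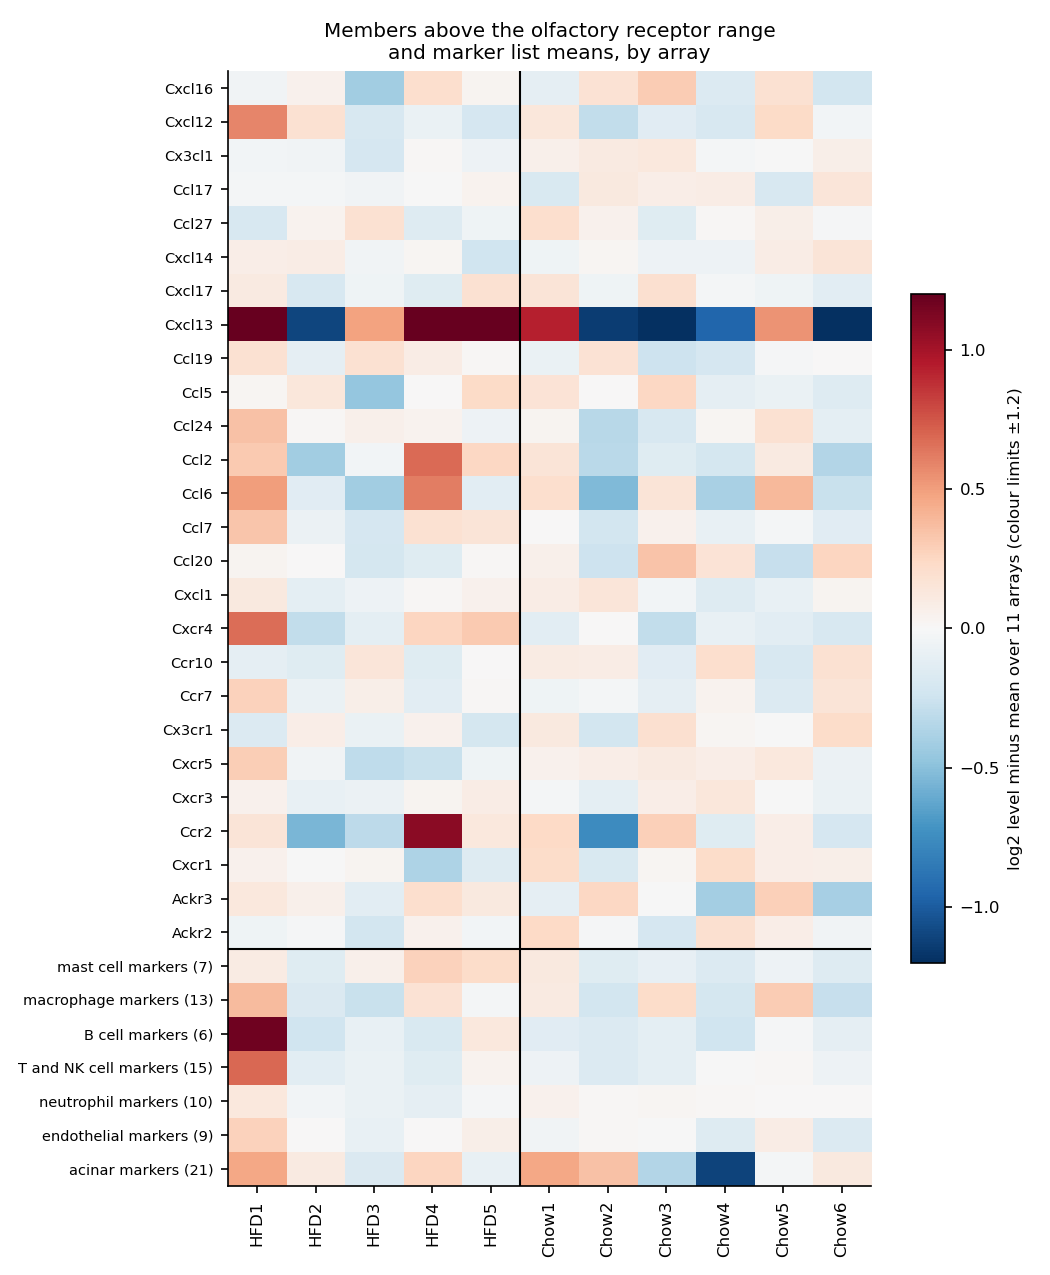
Log2 level minus the mean over the 11 arrays for the 26 members above the olfactory receptor range (upper block) and for the mean of 7 marker lists (lower block), HFD-father arrays left of the line and chow-father arrays right of it. HFD-father 1 is high in Cxcl12, Cxcr4 and in the B, T and NK cell lists, while Cxcl13 is also high in HFD-father 4 and 5 and chow-father 1.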

How the data were processed

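Total RNA from islets was hybridised as biotinylated cRNA to Affymetrix arrays. The authors deposited a gene-level table of log2 values per probe and array; the submitters' processing notes name RMA and MAS5, with no role or version given. A separate deposited table of exon-level values was not used. Of 27342 probes 15097 carried 1 gene symbol, 323 several (named by none) and 11922 were not listed; 15067 single-symbol probes matched RefSeq GRCr8 by Entrez number. Each of 14324 genes was read by its probe of highest mean.

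The difference between HFD-father and chow-father islets was fitted with limma 3.58.1 (R 4.3.3; lmFit and eBayes) on all probes and adjusted by Benjamini-Hochberg; "0.05" is the threshold throughout. The procedure was tested on simulated data. Figures were drawn in Python 3.11.15 with matplotlib 3.10.9. The 11 arrays limit the precision, and array intensities carry no read depth.

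Alternatives were quantile normalization, median centring, a filter on dim probes, blocks for run and replicate number, each run alone, an intensity trend, array weights, averaging the probes of a gene, and leaving out each array. The deviations of same-numbered arrays correlated at 0.33, -0.031, 0.005, -0.025 and -0.318. These values show no pairing by number and cannot exclude one, and the labels state none.

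The members and the gene lists were chosen with earlier results of these data known. Values per array are given for Cxcl13, members with an unadjusted p under 0.05 and the 4 members of greatest SD. They are also given for the 2 brightest members and the one of greatest difference in each class. For some of these the chow-father values are given as range and median. Also named, some by r or difference alone, are the 8 genes most like Cxcl13, and genes of other lists with an unadjusted p under 0.05. Cpa3 belongs to the last; Cr2, Ms4a1 and Cxcr5 were added after their values were seen. The kB letters searched in promoters were shortened by 1 base after a first search had been seen; the same members matched, and a larger share of all promoters did.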

Additional observations from a re-analysis of the deposited data

Results flagged for a closer look

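Values were examined for a sample set far apart from the others of its group by Dixon's ratio of gap to range, with limits of 0.710 for 5 and 0.625 for 6 arrays. Chance alone marks about 1 in 20 groups. Of 98 combinations of member and group, 1 was marked: Ccl22, a ligand of CCR4, stood at 5.16 in chow-father 4, above the next chow-father value of 4.75 (ratio 0.688).

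Only some of the other genes were examined in this way, and 3 of these lay far above the rest of their group in HFD-father 1. More genes of the lists were far higher there, such as Lck (7.03, next HFD-father value 6.01), Cd3g (7.08, next 4.47) and Glycam1 (7.10, next 5.24). Cr2 stood at 6.50 there, with the next HFD-father value at 4.12 (ratio 0.838). Ms4a1 stood at 5.66, with the next at 4.40 (ratio 0.725). Irf4, a transcription factor of lymphocytes and plasma cells, stood at 5.34, with the next at 5.24 (ratio 0.918), in a group whose other arrays lay close together.

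The mean deviation over 6 B cell markers was 1.16 in HFD-father 1 and 0.13 in the next HFD-father array (ratio 0.734), and over 15 T and NK cell markers it was 0.69 against 0.05 (ratio 0.774). Over 10 neutrophil markers it was 0.05 in chow-father 1 and 0.02 in the next chow-father array (ratio 0.657), a small step on the log2 scale.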

How the results depend on the processing

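Of 513 values recomputed, 471 were scored as unchanged and 20 changed sign, and the cause was not tested. For a tested gene, unchanged meant the same direction and the same side of the adjusted threshold. No gene passed that threshold in any of these fits, so keeping the side says little. For a count, unchanged meant a value near the main one. For the later run alone, it meant a difference within the chow-father SD of the main one. The adjusted p of Cxcl13 ran from 0.402 to 0.955 and its difference from 1.11 to 1.85 with 1 array left out. The replicate block gave 1.14 for Cxcl13 (adjusted p = 0.681), and with this block 2 members instead of 5 had an unadjusted p under 0.05. That count was 2 with median centring, 3 without dim probes (10 members tested), 3 with the run block, 1 in the earlier run alone, and from 0 to 6 with 1 array left out. Over all genes the count of 1182 became 612 without dim probes and 614 in the earlier run alone. It was 1172 with median centring, 962 with the run block and 884 with the replicate block. With 1 array left out it ran from 719 to 1611, lowest without HFD-father replicate 5. The receptor signalling count ran from 1 to 4 and the lymphoid tissue count from 1 to 4. With 1 array left out, Ccl5 ran from -0.090 to 0.083, Cxcl1 from -0.027 to 0.033, Cxcl16 from -0.121 to 0.033, Cxcl12 from -0.026 to 0.170 and Ccr2 from -0.063 to 0.345, each across 0. The sign also turned in the later run for Ccl5 (0.341), Ccl24 (-0.093), Cxcl16 (0.050), Cxcl12 (-0.303), Ccr10 (0.006) and Ccl6 (-0.187), in the earlier run for Cxcl1 (-0.022), and with array weights for Ccl5 (0.009) and Cxcl1 (-0.009). Signal over background limits what these arrays show: 26 of 49 members lay above the olfactory receptor range.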

Other observations

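Markers of the other cells of an islet preparation gave no member past the adjusted threshold of 0.05 with limma either. Of 9 endothelial markers 8 were higher and 1 lower in HFD-father islets, with a median difference of 0.10. Of 10 stellate cell and fibroblast markers 8 were higher and 2 lower, with a median of 0.08. Of 21 acinar markers, digestive enzymes of the exocrine pancreas, 20 were higher and 1 lower, with a median of 0.21, where chow-father 4 had the lowest mean deviation, at -1.11. The 14 islet endocrine markers were split into 5 higher and 9 lower, with a median of 0.00.

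B cell markers were higher in HFD-father islets in 6 of 6 genes, with a median of 0.23, and T and NK cell markers in 13 of 15, with a median of 0.08; HFD-father 1 held the highest value of 6 and 12 of them. Irf4, on the plasma cell list, was lower by 0.20 ± 0.06 (SE; unadjusted p = 0.00439, adjusted p = 0.405 with limma), and Ngp, a granule protein of neutrophils and a dim probe, by 0.17 ± 0.06 (SE; adjusted p = 0.49).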
